A study of Caenorhabditis elegans with 3 samples.

Results

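Distal intergenic peaks are the ELT-3 peaks that lay far from any annotated coding start. They were taken from the authors' reproducibility-thresholded peak list on the ce11 build. A peak belonged to them when its summit lay in no protein-coding gene and no annotated exon, and more than 2000 bp from the nearest start of a protein-coding transcript. The rule used position only. It was met by 609 of the 4530 peaks, or 13.4% (95% Clopper-Pearson interval 12.5 to 14.5).

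The peaks come from chromatin immunoprecipitation and sequencing (ChIP-seq) of the transcription factor ELT-3 in Caenorhabditis elegans. The 3 libraries form 1 group, whole L1 larvae of mixed sex from strain OP75, genotype unc-119(ed3) III; wgIs75, with no age given. Per the labels, the transgenic line stably makes a fusion of ELT-3 to GFP-FLAG at the C-terminal end, so the measured protein was tagged, and larvae without the transgene are not analysed here. Replicate 1 consists of 2 technical libraries and replicate 2 of 1 library. Since whole animals were used, a peak does not show in which cells the factor was bound. Library depth is unknown from the peak lists.

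ELT-3, a GATA factor, works in the epidermis, the tissue that secretes the worm's cuticle, downstream of the epidermal GATA factor ELT-1. GATA factors bind the core sequence GATA, often written WGATAR, in which W stands for either A or T and R for either purine base. Most coding genes of this compact genome have short intergenic regions, and long ones are known to flank many developmental regulators, where enhancers can lie far from the start they act on.

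The sequences under the strongest distal summits are shown first, because they carry the main observation: several held repeated WGATAR matches and others of like signal held none. Each line gives the 101 bases centred on a summit, named by the coding genes on either side, from the plus strand of the RefSeq WBcel235 assembly, which is ce11. Capitals mark WGATAR on either strand. The first 4 are the strongest distal peaks with a match, and the last 2 the strongest without one.
lips-1 to sdz-19, chrX:12501000-12501100: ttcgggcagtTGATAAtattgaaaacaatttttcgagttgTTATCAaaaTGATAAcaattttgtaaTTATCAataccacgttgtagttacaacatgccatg
Y37A1A.2 to Y37A1A.4, chrIV:13919359-13919459: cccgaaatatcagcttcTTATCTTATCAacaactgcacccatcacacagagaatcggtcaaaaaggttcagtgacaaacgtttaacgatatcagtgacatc
pde-2 to R08D7.7, chrIII:8986973-8987073: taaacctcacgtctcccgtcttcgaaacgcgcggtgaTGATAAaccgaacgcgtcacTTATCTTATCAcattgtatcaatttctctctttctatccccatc
sqst-5 to zig-13, chrIII:154325-154425: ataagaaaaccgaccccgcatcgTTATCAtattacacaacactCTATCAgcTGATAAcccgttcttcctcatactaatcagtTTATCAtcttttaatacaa
pdi-2 to nhr-35, chrX:4529021-4529121: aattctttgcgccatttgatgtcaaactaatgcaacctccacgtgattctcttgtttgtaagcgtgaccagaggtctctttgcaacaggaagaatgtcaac
nhr-46 to C31H1.2, chrIV:5764522-5764622: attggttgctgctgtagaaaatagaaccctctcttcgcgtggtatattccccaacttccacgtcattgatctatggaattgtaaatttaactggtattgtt

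The windows beside lips-1 and sqst-5 each held 4 matches, that beside Y37A1A.2 held 2 and that beside pde-2 held 3. In these last windows, beside Y37A1A.2 and pde-2, a pair of matches on the same strand shared a base, with starts 5 bp apart.

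Signal is the value the authors' peak caller gave a peak, in a unit they do not state, and the pooled list and the list of each replicate were made separately. The peak between lips-1, a lipase-like gene, and sdz-19 had the highest signal of the distal peaks, 288 in the pool, 110 in replicate 1 and 178 in replicate 2. The peak between Y37A1A.2 and Y37A1A.4 had a signal of 259 in the pool, 93.2 in replicate 1 and 165 in replicate 2. The peak beside pde-2, which encodes a cyclic nucleotide phosphodiesterase, had 258 in the pool, 129 in replicate 1 and 145 in replicate 2. All of these stood above the 75th percentile of distal peaks in each list, which was 89.6 in the pool, 48.8 in replicate 1 and 47.9 in replicate 2.

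The peak between sqst-5 and zig-13 had a signal of 258 in the pool, 73.4 in replicate 1 and 182 in replicate 2. The summit between pdi-2, a protein disulfide isomerase used in cuticle collagen assembly, and the nuclear hormone receptor gene nhr-35 lay 3620 bp upstream of the nhr-35 start. Without any WGATAR match, it had a signal of 251 in the pool, 126 in replicate 1 and 124 in replicate 2. The summit upstream of nhr-46, another nuclear hormone receptor gene, lay 6710 bp from its start, at 221 in the pool, 89.1 in replicate 1 and 136 in replicate 2. Both summits without WGATAR were thus high in each replicate.

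The others of the 12 highest signals had between 0 and 2 matches. They included the peaks between T22F3.11 and the chemoreceptor gene srx-93 at 232, between lpin-1, which encodes the phosphatidate phosphatase lipin, and letm-1 at 230, and between Y37D8A.4 and Y37D8A.5 at 213. The peak between irld-18 and dmd-6, a gene of the DM-domain family, was also at 213, that between Y48G8AR.8 and Y48G8AR.2 at 210 and that between srx-113 and F56H9.2 at 196. Of these 6, those beside srx-93, lpin-1 and dmd-6 held a match and the other 3 held none.

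Over all 609 distal peaks the pooled signal ran from 35.3 to 288 with a median of 60.8, and over the other 3921 peaks of the list the median was 59.8. The mean log2 signal was higher by 0.043 at distal peaks, which did not pass the two-sided permutation test (p = 0.125, 100000 permutations of peaks). The direction depended on the replicate: the difference was -0.023 among the strongest 4530 peaks of replicate 1 alone and 0.060 among those of replicate 2 alone, the latter with a permutation p of 0.0346. Distal peaks made up 67 of the strongest 10% of the list, which is 11% of the distal peaks. Neighbouring peaks are not independent and all come from the same libraries, so these and the following tests over peaks describe this list, and intervals cover counting error only.

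All 609 distal peaks overlapped a peak in the list of replicate 1 by at least 1 bp, and 591 (97.0%) overlapped one in that of replicate 2. The thresholded list was derived from the pooled and replicate lists, and the latter also hold background. Most of this overlap was therefore built in for every thresholded peak and is no independent check. Among the other peaks 95.8% were in both lists, a difference of 1.2 percentage points (95% Newcombe interval -0.56 to 2.47, two-sided Fisher's exact p = 0.182). When the overlap had to cover 50% of the peak, the difference was 3.37 points with an exact p of 0.0126. Taking the strongest 4530 peaks of each replicate, 388 distal peaks were in both sets, 101 in that of replicate 1 only, 112 in that of replicate 2 only and 8 in neither (exact McNemar p = 0.493 for replicate 1 against replicate 2). The difference in share was -1.81 points, and -4.93 when 50% of the peak had to be covered (exact McNemar p = 0.0567). Across the 591 peaks with a value in both, the signals of the replicates had a Spearman rho of 0.331 and a Pearson r of 0.283 on the log10 scale. This is given as a description, since the peaks share their libraries.

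**Figure D1:**
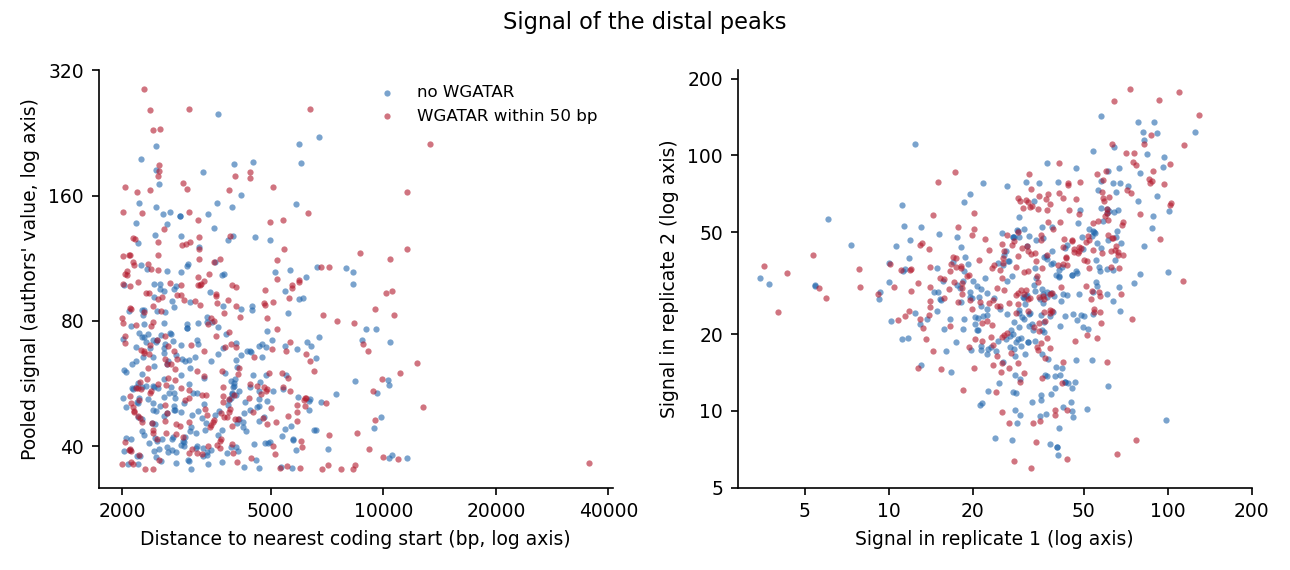
Signal of the distal peaks, each point 1 peak, red with WGATAR within 50 bp of the summit and blue without. Left, pooled signal against the distance to the nearest coding start in bp (609 peaks); right, signal in replicate 2 against signal in replicate 1 (591 peaks with both), all axes logarithmic. Both colours span the range of distances, and the replicate signals follow each other loosely, with a rho of 0.331.

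Windows reaching 50 bp to each side of the distal summits held WGATAR on either strand in 291 of 609 cases (47.8%, Clopper-Pearson interval 43.8 to 51.8). At 500 bp to the left of the same summits, equally wide windows held it in 23% of cases, and at 500 bp to the right in 21.5%. The excess over the mean of both flanks was 25.5 percentage points, with exact McNemar p-values of 1.68e-18 and 1.23e-20. Sites were spread over the central 120 bp rather than on 1 base: each 20 bp bin within 60 bp of the summit held 13.96 to 16.1 sites per 100 peaks, and each bin farther than 200 bp held 3.94 to 7.39. By number of sites, 318 distal summits had 0, 175 had 1, 92 had 2, 20 had 3 and 4 had 4. More than 1 site was found at 19.0% of distal summits, beside 14.3% at intergenic summits 1000 to 2000 bp from a start, 18.2% at intronic ones and 10.6% at intergenic ones up to 1000 bp from a start.

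**Figure D2:**
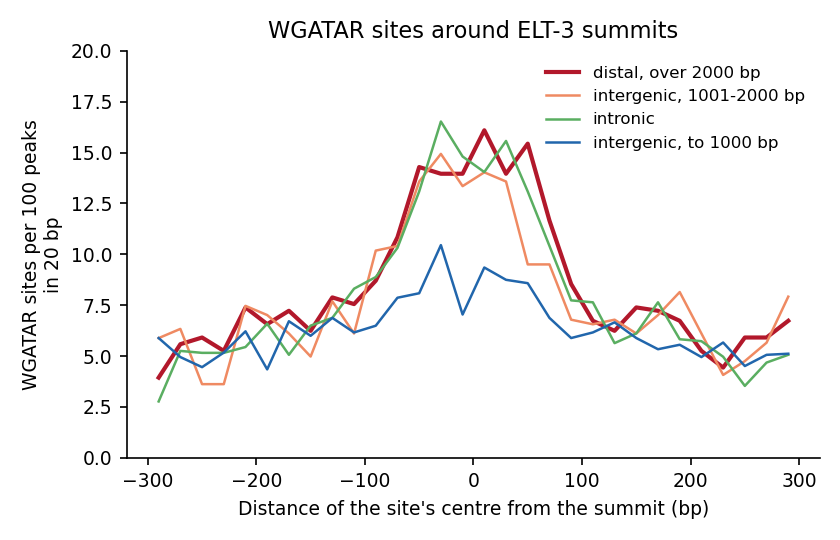
WGATAR sites per 100 peaks in bins of 20 bp against the distance of the site's centre from the summit in bp, by class of peak, counting both strands. Distal peaks (thick red) reached 13.96 to 16.1 within 60 bp of the summit, and the line of peaks up to 1000 bp from a start (blue) lay below the other 3 there.

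The question these classes address is whether peaks far from coding starts fell on the same kind of sequence as peaks nearer to them or in introns. Intergenic peaks over 1000 and up to 2000 bp from a start had WGATAR in 207 of 442 cases (46.8%), 0.951 percentage points below the distal peaks (Newcombe interval of the difference -5.15 to 7.03). Intronic peaks had it in 489 of 1047 (46.7%), 1.08 points below (interval -3.89 to 6.06). Neither difference passed Fisher's exact test (adjusted p = 0.802 for both, Benjamini-Hochberg over 3 classes), and both changed sign under other settings. Intergenic peaks up to 1000 bp from a start had WGATAR in 530 of 1818 (29.2%), 18.6 points below the distal peaks (interval 14.2 to 23.1, adjusted exact p = 4.15e-16). The shares in the flanks of these 4 classes ran from 17.8 to 24.0%. Peaks in an exon, which were not among the classes tested, had WGATAR in 196 of 614 cases (31.9%).

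Base composition moved with these classes. The median GC content within 50 bp was 40.6% at distal, mid-distance and intronic summits and 43.6% at summits up to 1000 bp from a start. Among summits of 35 to 45% GC, a bin chosen after the data were seen, the distal share differed from that near starts by 15.1 points (adjusted Fisher's exact p = 1.16e-05), beside 18.6 over all summits. It differed from its flanks by 26.1 points, beside 25.5 over all summits. The bin was set on the summit window only, so this comparison with the flanks did not hold GC content equal. A window within 25 bp of the summit was run without the GC bin, over all 609 distal peaks. There the differences were 10.8 points from peaks near starts and 15.6 from the flanks.

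**Figure D3:**
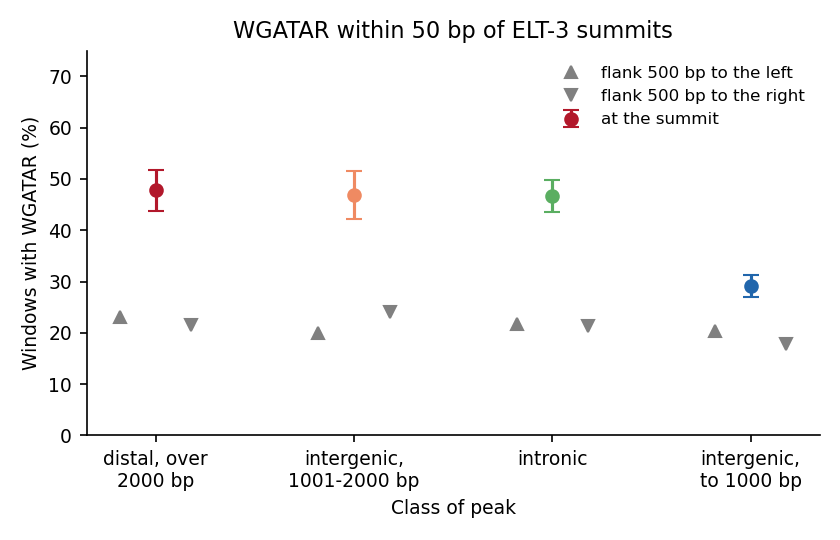
Share of windows with WGATAR, in percent, by class of peak. Circles are summit windows with 95% Clopper-Pearson intervals and triangles are windows of the same width 500 bp to each side, which lay between 17.8 and 24.0%. Distal summits at 47.8% stood beside 46.8, 46.7 and 29.2% in the other classes shown. Peaks in exons are not shown.

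The forms of the site were not equally common at distal summits. TGATAA was the most frequent, at 29.4% of summits against 11.2 and 9.69% of the left and right flanks. AGATAA was present at 14.1% (flanks 6.24 and 7.55%), AGATAG at 9.36% (flanks 4.11 and 3.78%) and TGATAG at 6.73% (flanks 3.45 and 4.43%). GATAAG, in which a G follows GATAA, was found at 20.03% of summits and at 3.61 and 4.11% of the flanks. Where a distal window held several sites, 91 of the 144 neighbouring pairs were on the same strand. In the left flanks 8 of 20 such pairs were, and in the right flanks 21 of 32, with no test. At the summits the commonest arrangement was the overlap seen in the printed sequences, same-strand starts 5 bp apart. It made up 9 of the 144 pairs there, beside 1 of the 20 pairs in the left flanks and none of the 32 in the right flanks. This arrangement was singled out after the sequences had been read, and has no test.

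All 6-base sequences, 2080 when each is joined with its reverse complement, were then counted at the distal summits. Against the flanks 12.2% were called at an adjusted p below 0.05 in both McNemar comparisons, 147 more frequent at the summit and 106 less frequent. The balance depended on the setting, with 80 more frequent and 88 less frequent without replicate 1, 54 and 60 beyond 3000 bp, 42 and 50 with starts of any gene type, and 45 and 52 within 25 bp. GAGAGA and its shifted form AGAGAG led the list. GAGAGA was at 26.4% of distal summits and 6.49% of flanks (adjusted exact p = 7.13e-19), and AGAGAG at 23.97% and 4.52%. Next came GATAAG as given above, then AAGAGA at 26.8% against 7.64%, and then TGATAA as above. The sequences lowest at the summit were rich in A and T. AAAATT was at 14.4% of summits and 50.4% of flanks, AAATTT at 5.42 and 29.7%, TTAAAA at 7.55 and 33.3%, AAAAAT at 24.3 and 56.2%, and TAAAAA at 15.9 and 38.8%. The GC content moved with this. Its mean within 50 bp was 7.45 percentage points higher at the distal summits than in their flanks (permutation p = 1e-05, the smallest that 100000 permutations can give), and its part in these calls was not tested. That difference was 3.97 points without replicate 1, among the strongest 4530 peaks of replicate 2, and 9.69 points without replicate 2.

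GAGAGA was at 23.4% of the 291 distal summits with WGATAR and at 29.2% of the 318 without. CTGCGT, which stood at rank 18 among the more frequent sequences, was at 9.85% of summits and 1.56% of flanks. No match to any of WGATAR and this pair of sequences was present at 211 distal summits (34.6%). The pair was chosen with the results on the whole list known.

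Against intergenic summits up to 1000 bp from a start, 11.5% of the 6-base sequences were called by Fisher's exact test, 92 more frequent at distal summits and 148 less frequent, and without replicate 1 the counts were 47 and 103. GATA-containing sequences led the higher ones, TGATAA at 29.4 against 15.8% and GATAAG at 20.03 against 10.9%, followed by CATCAA at 11.3 against 5.28%, ATCACA at 13.1 against 6.82% and AGATCA at 9.03 against 4.13%. The lower ones were led by sequences rich in C and G. ACGCGC was at 2.30% of distal summits and 13.04% of those near starts (adjusted exact p = 4.39e-14), GAGCGC at 1.64 and 11.6%, AACGCG at 1.97 and 11.3%, and GCGCAC at 1.81 and 10.8%. AAATGC, at 2.46 and 13.04%, was among the 5 lowest too. GAGAGA did not pass between these classes, at 26.4% of distal summits and 22.3% near starts (adjusted exact p = 0.178). Against intergenic summits 1000 to 2000 bp from a start, 0.0% of the 6-base sequences were called by Fisher's exact test, and 75 of the 2080 had an unadjusted p below 0.05.

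**Figure D4:**
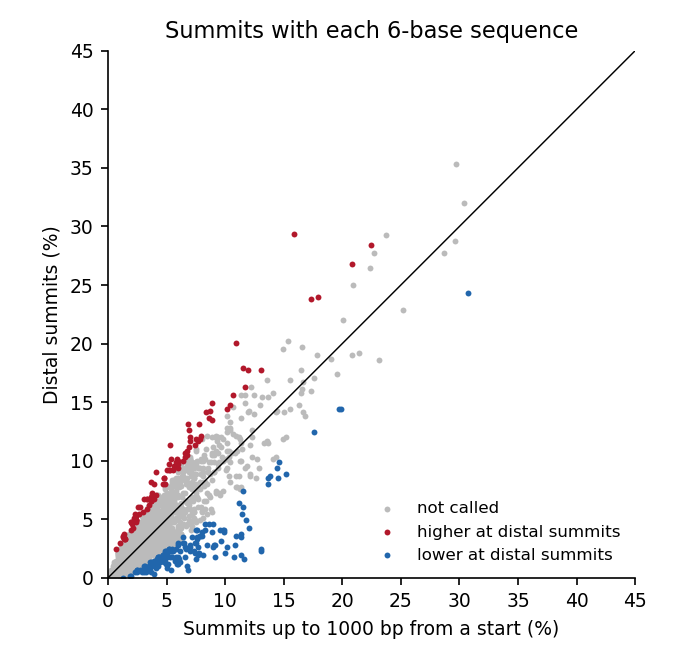
Share of distal summits (vertical) against share of intergenic summits up to 1000 bp from a start (horizontal) that held each of 2080 6-base sequences, in percent, each point 1 sequence. Of these, 92 called higher at distal summits are red, 148 called lower are blue, and the line marks equal shares.

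The distal rule is met by 14957847 bp, or 14.9% of the nuclear genome, and 13.4% of the peaks lay in it. This is 40.7 peaks per Mb, beside 146 per Mb in intergenic sequence up to 1000 bp from a start, 61.1 in that from 1000 to 2000 bp, 32.1 in introns and 18.6 in exons. The median distance to the nearest coding start was 3295 bp, and 25% of the distal peaks lay over 4721 bp away. The nearest start was downstream of the summit, so that the peak lay upstream of the gene, for 433 peaks (71.1%). Within 500 bp past the end of a coding gene lay 52 (8.54%). The share of the distal sequence in either position was not counted, so these counts have no background to be read against.

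Peaks were sparser between genes that converge. Gaps between the 3′ ends of convergent genes held 15.9% of the distal sequence and 45 peaks (7.39%), or 18.9 per Mb. Gaps between divergent genes held 212 peaks, 46.6 per Mb, and gaps between genes on the same strand 350 peaks, 43.9 per Mb. By chromosome, the density per Mb of distal sequence was highest on II at 55.6 and lowest on V at 26.98, with I at 51.3, III at 48.0, X at 44.5 and IV at 28.9. Chromosome X had the largest number, 162 peaks, and the largest length of distal sequence. The share with WGATAR ranged from 39.5% on X and 40.9% on I to 54.9% on V, with intervals that overlap. These densities are descriptions with no test.

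WGATAR showed no steady course with distance: with distal peaks split into 4 equal bins, from the nearest to the farthest, its share was 50.3, 40.8, 43.4 and 56.6%. By signal it was 43.8, 44.7 and 42.8% in the lower 3 bins and 59.9% in the highest. Across the 609 peaks, which share their libraries, Spearman's rho was 0.131 between signal and number of sites and -0.069 between signal and distance. At the edge of the rule, the nearest summits inside lay 2001 bp from the start of K02E7.7, 2004 bp from K02E7.12 and 2008 bp from bli-4, a protease of cuticle formation, with signals of 81.3, 36.3 and 72.4. The nearest outside lay 1989 bp from klf-1, 1984 bp from F26A3.4 and 1980 bp from mrp-8, with signals of 39.9, 56.6 and 43.3.

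The distal peaks fell into 436 gaps between coding genes. Of these gaps, 315 held 1 distal peak, 89 held 2, 19 held 3 and 13 held 4 or more. Neighbouring summits in a gap were a median of 1425 bp apart. The most were found between snt-1, which encodes synaptotagmin of synaptic vesicles, and egl-27, a chromatin factor with a role in cell fate and polarity: 7 peaks in 18574 bp, with signals from 37.3 to 119.03 and WGATAR at 4. The strongest of them lay 11559 bp from the nearest start and had a signal of 119.03 in the pool, 68.8 in replicate 1 and 53.7 in replicate 2. Another of the 7 had 97.8 in the pool but 76.9 in replicate 1 and 7.72 in replicate 2, so the replicates were far apart there.

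The gap between irld-18 and dmd-6 spanned 35563 bp and held 6 distal peaks. The strongest, at 213, lay alone 13371 bp from the start of irld-18, with 86.9 in replicate 1 and 120 in replicate 2, and the other 5, at 43.8 to 109, were grouped toward dmd-6. The gap between mxl-3, a bHLH repressor of lipase genes in fed animals, and C49F8.15 spanned 10396 bp and held 5 peaks with signals from 45.1 to 128, of which 1 had WGATAR. Peaks also lay past the other end of mxl-3: the one between it and ptr-24 had 153 in the pool, 67.7 in replicate 1 and 78.3 in replicate 2. Of the 5 peaks farthest from a start, the first was 35603 bp from that of Y73B3A.1 at the left end of chromosome X, with a signal of 36.4 in the pool, 5.93 in replicate 1 and 27.8 in replicate 2. The others, besides those beside irld-18 and snt-1 above, lay 12798 bp from C31H1.2 at a signal of 49.8 and 12329 bp from C30G12.2 at 63.4.

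**Figure D5:**
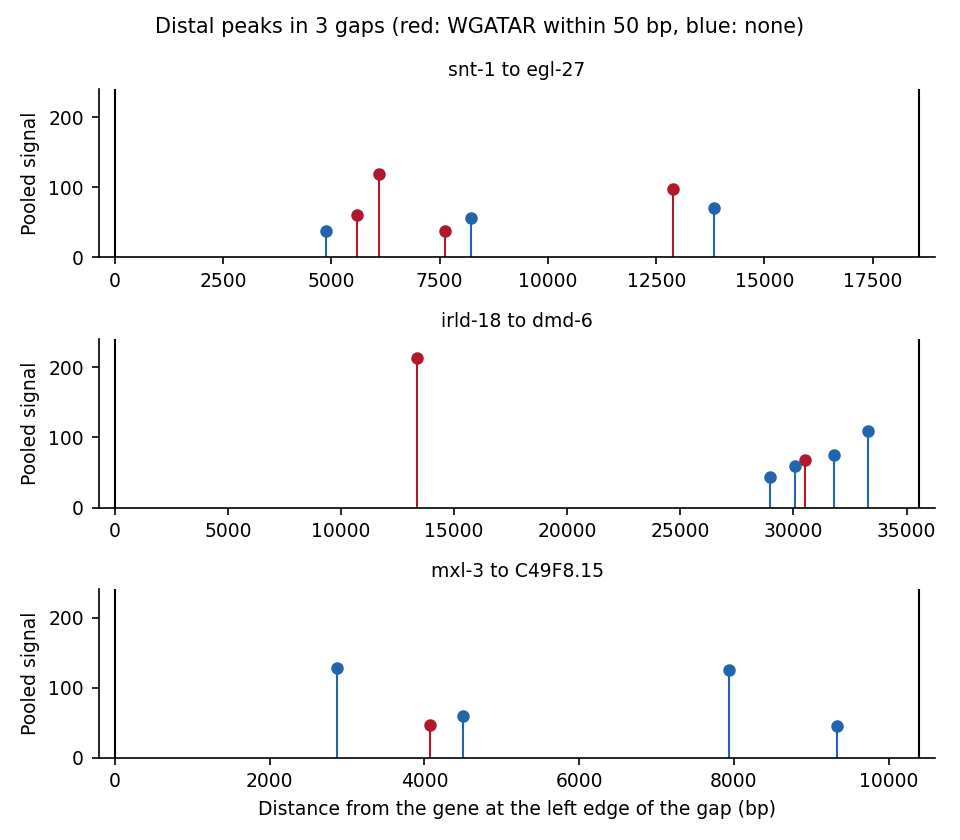
Distal peaks in the 3 gaps with the most of them, with pooled signal against distance in bp from the gene at the left edge; vertical black lines are the gap's edges, and red marks WGATAR within 50 bp of the summit. The 7 peaks between snt-1 and egl-27 lie in 2 stretches, and 5 of the 6 between irld-18 and dmd-6 lie toward dmd-6.

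The coding genes on either side of a distal peak are given as neighbours only, since the peaks do not show which gene they act on. Of 19973 coding genes, 847 (4.24%) flanked a distal peak, which is 10.7% of the 7930 genes that border any distal sequence. Nuclear hormone receptor genes flanked one in 33 of 274 cases (12.04%, and 22.9% of those that border distal sequence). These were led by nhr-35 and nhr-46 above and by nhr-4. The peak beside nhr-4 lay 11159 bp from that gene and 2468 bp from the nearest coding start, that of K07F5.15. It had 185 in the pool, 82.1 in replicate 1 and 115 in replicate 2. Of the homeobox genes, 8 of 91 (8.79%) flanked one, or 13.8% of those that border distal sequence, beside 10.7% for all coding genes. The strongest lay 11546 bp upstream of alr-1, an Aristaless homologue, at 163 in the pool, 86.04 in replicate 1 and 77.7 in replicate 2. All counts by list are descriptions with no test, to be read beside the 4.24% of all coding genes and the 10.7% of those that border distal sequence.

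Hedgehog-related and patched-related genes, many of which act in the epidermis and its cuticle, flanked a distal peak in 9 of 86 cases (10.5%, 24.3% of those bordering distal sequence). Beside ptr-24 above, they included ptc-3, a patched gene with a peak 5203 bp upstream at 112, and grl-8 with one 3928 bp upstream at 97.6. Of 35 bHLH genes, 20 of which border distal sequence, 3 flanked one: mdl-1, with 182 in the pool, 74.7 in replicate 1 and 93.9 in replicate 2, mxl-3, and hlh-29 at 90.6. Of 9 heterochronic genes, which time larval development and of which 6 border distal sequence, 2 did: lin-41 and hbl-1. The peak in the gap before lin-41 lay 1542 bp past that gene's 3′ end, with 140 in the pool, 58.8 in replicate 1 and 79.9 in replicate 2. That of hbl-1, a zinc-finger gene of early larval fates, lay 11287 bp upstream of it at 59.9.

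Lists of epidermal genes are given next. Of 19 epidermal factors, 16 of which border distal sequence, blmp-1 and nhr-25 flanked a distal peak, with signals of 56.9 and 41.3, and the latter was not in the list of replicate 2. Of 174 collagen genes 6 did (3.45%), or 6 of the 46 that border distal sequence (13.04%), the strongest beside col-185 at 79.4, col-98 at 73.3 and col-166 at 66.9. Of 22 epidermal peptide genes, 3 of which border distal sequence, cnc-10 did, at 36.3. None of the 11 GATA factor genes, the 11 Wnt pathway genes or the 22 intestinal genes did. Of these, 9, 8 and 14 border distal sequence, where 10.7% of all coding genes flanked a distal peak. Of the 6 Hox genes, all of which border distal sequence, ceh-13 did, with a summit 41 bp past its 3′ end at 50.9, and of 21 T-box genes, with 14 bordering it, tbx-33 did, at 89.3.

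Chemoreceptor genes, a large family expressed in sensory neurons, flanked a distal peak in 14 of 1310 cases (1.07%, 2.60% of those bordering distal sequence), including srx-93, srx-113 and srw-60. C-type lectin genes did in 3 of 240 cases (1.25%, 3.85% of those bordering it) and neuropeptide and insulin genes in 4 of 129 (3.10%, 5.19% of those bordering it). Ribosomal protein genes did in 2 of 77 (2.60%), which is 2 of the 10 that border distal sequence. Of 20 muscle and pharynx genes, 14 of which border it, unc-89 did. The number of genes of a list that flank a peak depends on the length of the sequence around them, which differs between lists.

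Distance was measured to coding genes, and noncoding ones lie in the same gaps. Within 2000 bp of the start of a gene of any type lay the summits of 296 distal peaks (48.6%), beside 47.2% of the distal sequence, and 313 were farther. Within 200 bp of a noncoding gene lay 83 (13.6%), beside 19.03% of the distal sequence, with no test. The nearest such gene was of the class annotated ncRNA for 48 and a lincRNA gene for 10. The strongest beside a lincRNA lay inside linc-105, at 122 in the pool, 58.5 in replicate 1 and 68.3 in replicate 2, and the next lay just upstream of linc-107 at 106. For 10 summits the nearest was a snoRNA, tRNA or snRNA gene within the same distance, and 9 of them lay upstream of it. Of these 10, 1 had WGATAR, beside 47.8% of all distal summits, and their signals ran from 38.6 to 89.6. The side has no background to be read against, and neither count was tested.

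The nearest noncoding gene was a microRNA gene within 1000 bp for 5 distal summits. The strongest was 678 bp upstream of mir-47, at 144 in the pool, 101 in replicate 1 and 60.4 in replicate 2, with no WGATAR. The peak near lin-41 described above was also 312 bp past the start of mir-79, a microRNA known to act in the C. elegans epidermis, and had 2 WGATAR sites. Between plg-1 and K01F9.2 on chromosome III, 1 summit lay 185 bp upstream of mir-238 with a signal of 85.5 in the pool, 43.2 in replicate 1 and 39.6 in replicate 2. Another in that gap lay 209 bp upstream of mir-80, at 37.5 in the pool and 37.7 in replicate 1 and with no peak in the list of replicate 2. A summit 744 bp past mir-266 had 37.1.

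The width was 320 bp for 546 distal peaks (89.7%) and for 90.8% of the others, and the mean width differed by -1.0 bp (permutation p = 0.667). The mean GC content at distal summits was 0.62 percentage points below that of intergenic summits 1000 to 2000 bp from a start (permutation p = 0.162). The summit base was soft-masked as repeat sequence at 117 distal peaks (19.2%), beside 13.6% of intergenic summits 1000 to 2000 bp from a start, 16.1% nearer a start and 14.1% in introns, with no test. WGATAR was at 45.3% of the masked distal summits and 48.4% of the others. Of the 609 distal peaks, 608 lay over 20 kb from elt-3 and unc-119, the genes named in the strain's genotype and tag.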

How the data were processed

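Peak lists of ELT-3 ChIP-seq from L1 larvae were analysed as the authors deposited them, 1 per replicate, 1 of the pool and 1 thresholded on reproducibility. The software for read alignment and peak calling was not given in the sources used here. Each peak's deposited signal has no stated scale, and the deposited −log10 q reached its largest value at each of the 12 strongest distal peaks, so peaks were ranked by signal. The replicate lists held 30000 and 27330 peaks.

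Summits came from the deposited offsets, sequence from RefSeq WBcel235 and gene models from Ensembl release 115. Windows of 101 bp were searched on both strands. Paired shares were compared with exact McNemar tests against each flank, the larger p-value being used for 6-base sequences, classes with two-sided Fisher's exact tests, and means with 100000 permutations, in Python 3.11.15 with SciPy 1.17.1. Adjustment was by Benjamini-Hochberg at 0.05, over all 2080 sequences or 3 classes. The code was tested on simulated data.

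Features were named by rule: the 12 strongest peaks, the 5 farthest, 3 on each side of the 2000 bp threshold, the 3 gaps with most peaks, up to 3 genes of each list and 5 sequences per direction. The microRNA, lincRNA and small RNA neighbours and CTGCGT fall outside it. Members and the 18 gene lists were chosen with earlier results of these data known.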

Additional observations from a re-analysis of the deposited data

How the results depend on the processing

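The excess of WGATAR over the flanks kept its direction and its call under all 14 alternatives run, from 15.6 to 30.4 percentage points. It was 24.3 points without replicate 1, where the distal share was 46.8%, and 18.9 without replicate 2, where that share was 41.3%. Distal peaks among the strongest of replicate 1 only had WGATAR in 35 of 101 cases (34.7%). Those among the strongest of replicate 2 only had it in 58 of 112 (51.8%), with no test. The difference from peaks near starts also kept its direction and call under 13 alternatives, from 10.8 to 22.6 points. So did GC content over the flanks under 10, from 3.97 without replicate 1 to 9.69 without replicate 2. The difference from mid-distance intergenic peaks was below 0 within 25 bp (-0.158), and ran from -0.601 to 3.73 with either replicate left out. That from intronic peaks was below 0 within 25 bp (-0.169), within 100 bp (-0.0988) and at 35 to 45% GC (-0.278), and ran from -0.804 to -0.484 without a replicate. Neither difference passed the test in any of these.

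The log2 signal difference was -0.0012 beyond 3000 bp and 0.158 with 1 distal peak per gap, a setting that keeps the strongest and under which the test was passed (permutation p = 1e-05, the smallest possible). Without a replicate it ran from -0.023 to 0.060. The width difference was 0.779 bp beyond 3000 bp, 0.155 with starts of any gene type, -6.0 with 1 peak per gap, which passed the test (permutation p = 0.0286), and from -1.05 to 2.01 without a replicate. The GC difference from mid-distance peaks was -1.05 points with starts of any gene type (permutation p = 0.0417). The share in both lists differed by 3.37 points when 50% of a peak had to be covered, and that among the strongest of replicate 1 against 2 by 0.459 with 1 peak per gap and -4.93 when 50% had to be covered.

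Against the flanks 114 sequences were called beyond 3000 bp, 130 in the stronger part of the list, 92 with starts of any type, 97 within 25 bp, 455 within 100 bp, and 168 to 343 without a replicate. Against peaks near starts the counts were 120, 92, 88, 121 and 388 in that order, 150 with 1 peak per gap and 150 to 266 without a replicate. Fewer distal peaks entered beyond 3000 bp, in the stronger part, with starts of any type and with 1 peak per gap. Windows were shorter within 25 bp and longer within 100 bp. Without replicate 1 there were 664 distal peaks and 168 calls against the flanks. Without replicate 2 there were 591 and 343, beside 609 and 253 in the main setting. Causes of these differences were not tested. No paired analysis was possible because there is 1 group. Settings on soft-masked summits, peaks in both lists and GC were chosen after seeing the data. Library depth is unknown and limits every value.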
